A study of Drosophila melanogaster with 2 samples.

Results

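Of the 30000 peaks in the pooled peak list of B-H2-GFP fly embryos, 2170 (7.23%) had their summit between divergent promoters. A peak was counted when its summit lay between the transcription start site (TSS) of a minus-strand protein-coding gene on its left and that of another, plus-strand protein-coding gene on its right, each within 1 kb. TSSs came from Ensembl BDGP6 gene models. No measured value entered this choice beyond the summit position. Of the 2170 members, 1033 (47.6%, exact 95% interval 45.5 to 49.7%) were also in the authors' optimal set by irreproducible discovery rate (IDR, which scores whether a peak keeps its rank from replicate to replicate), against 14.3% of all pooled peaks. These are called IDR members, and the remaining 1137 are called other members. The IDR set was exactly the 4277 pooled peaks of highest signal, so the split between IDR and other members is a split by signal.

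The data came from chromatin immunoprecipitation and sequencing (ChIP-seq) of whole Drosophila melanogaster embryos aged 6 to 22 hours, males and females pooled. All samples came from a transgenic line in which the homeodomain protein B-H2 carries green fluorescent protein at its C terminus. There was 1 group with 2 biological replicates, labelled 1 and 3, and no second condition. The assay and antibody labels name B-H2 ChIP, whereas the description of both samples names an input control, and the peak lists do not settle which holds. The values are given under the assay label. Neither B-H1 nor B-H2, the Bar genes themselves, flanked a member. Signal is the value of the authors' peak caller, on a scale that the sources used here do not state, and read depth is unknown.

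In a divergent pair, the promoters of neighbouring genes lie back to back and transcription leaves the shared upstream region in both directions. The arrangement is frequent in the compact Drosophila genome, above all among genes that most cells use. Many promoters of such housekeeping genes carry the DNA replication-related element (DRE), bound by the factor Dref and overlapping in sequence with sites of the insulator protein BEAF-32, or motif 1, bound by M1BP. Promoters of regulated genes more often carry a TATA box, an initiator or GAGA factor sites. Homeodomain proteins such as B-H2 bind short AT-rich cores.

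The whole stretch from TSS to TSS is shown for the 5 strongest IDR members with a gap of at most 300 bp, to show what lies under the highest signals. All sequences are the plus strand of the RefSeq genome of build dm6, and gaps on the right arm of chromosome 2 are not shown. Capitals mark, on either strand, the DRE core TATCGA or the full element TATCGATA, the motif 1 core GGTCAC or the longer GGTCACACT, the homeodomain core TAATTA or its variant TAATTG, and the Bar-type core TAAACG. The gaps lie at chr3R:15229408-15229665, chr3L:21304467-21304697, chr3L:5139395-5139619, chr3R:25247472-25247658 and chr3L:15982869-15983135 in the order listed.
Art3/mRpS10: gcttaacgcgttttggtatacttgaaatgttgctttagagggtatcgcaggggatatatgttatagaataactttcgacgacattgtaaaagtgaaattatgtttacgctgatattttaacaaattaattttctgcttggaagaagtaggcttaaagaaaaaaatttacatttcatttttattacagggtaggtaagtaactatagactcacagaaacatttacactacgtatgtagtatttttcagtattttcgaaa
CG11309/CG7632: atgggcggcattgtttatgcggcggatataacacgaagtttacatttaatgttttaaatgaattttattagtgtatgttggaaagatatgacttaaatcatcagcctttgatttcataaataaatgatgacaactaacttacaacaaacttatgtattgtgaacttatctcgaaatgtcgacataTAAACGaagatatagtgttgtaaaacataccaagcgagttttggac
Tcs5/CHMP2B: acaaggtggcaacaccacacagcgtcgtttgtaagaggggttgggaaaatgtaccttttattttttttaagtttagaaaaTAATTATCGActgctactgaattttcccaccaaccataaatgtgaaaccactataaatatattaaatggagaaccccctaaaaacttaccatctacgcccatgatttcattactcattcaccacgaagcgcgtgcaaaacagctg
RpS27/Nup37: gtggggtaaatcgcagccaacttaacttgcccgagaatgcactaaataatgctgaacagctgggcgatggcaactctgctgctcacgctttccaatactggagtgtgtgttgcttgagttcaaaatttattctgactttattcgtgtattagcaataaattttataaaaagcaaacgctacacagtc
brm/Arl1: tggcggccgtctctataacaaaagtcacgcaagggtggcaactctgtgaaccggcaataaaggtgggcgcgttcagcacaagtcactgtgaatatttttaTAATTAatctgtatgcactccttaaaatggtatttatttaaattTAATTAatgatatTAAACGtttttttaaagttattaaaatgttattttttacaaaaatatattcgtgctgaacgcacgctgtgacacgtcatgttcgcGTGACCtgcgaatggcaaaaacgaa
The Art3/mRpS10 and RpS27/Nup37 stretches held none of these sites, and only Tcs5/CHMP2B held the DRE core. The brm/Arl1 stretch held TAATTA at 2 places. The summits lay 122, 100, 101, 39 and 140 bp from the left TSS in the order listed.

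For contrast, 1 of the other members, with a signal near their median, had the following gap, at chr3R:11626638-11626889.
CG6813/CG18764: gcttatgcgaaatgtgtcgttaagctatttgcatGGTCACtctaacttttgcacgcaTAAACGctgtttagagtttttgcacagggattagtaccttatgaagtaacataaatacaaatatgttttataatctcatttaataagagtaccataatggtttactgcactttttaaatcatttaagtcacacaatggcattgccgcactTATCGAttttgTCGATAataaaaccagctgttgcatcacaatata
The summit lay 4 bp from the CG6813 TSS in the CG6813/CG18764 gap, which held the DRE core at 2 places and GGTCAC at 1. A further pair of gaps was chosen after the values were seen, as the strongest IDR members with the full DRE or the longer motif 1 in the summit window, at chr3R:11216287-11216535 and chr2L:10200974-10201100.
RpS25/CG4820: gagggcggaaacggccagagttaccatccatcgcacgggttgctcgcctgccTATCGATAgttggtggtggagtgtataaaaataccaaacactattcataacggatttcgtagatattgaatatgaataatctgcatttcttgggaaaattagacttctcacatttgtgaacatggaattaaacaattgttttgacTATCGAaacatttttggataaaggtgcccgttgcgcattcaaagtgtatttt
Ripalpha/RpL7: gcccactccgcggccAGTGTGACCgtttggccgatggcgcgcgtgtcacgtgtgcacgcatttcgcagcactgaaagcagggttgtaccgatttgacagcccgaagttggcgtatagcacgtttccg
In the RpS25/CG4820 gap the summit lay 52 bp from the RpS25 TSS, beside TATCGATA. RpS25 encodes a protein of the small cytoplasmic ribosomal subunit and RpL7 one of the large subunit.

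The members were stronger than other promoter peaks. Their median signal was 105, against 61.8 for the 5702 one-way upstream peaks, whose summits lie upstream of the nearest coding TSS within 1 kb with no divergent partner, and 44.6 for all pooled peaks. The IDR share of 47.6% among members compared with 25.4% (24.3 to 26.5%) among one-way upstream peaks, 13.7% among the 4496 peaks downstream of their nearest TSS and 6.69% among the 17632 peaks farther than 1 kb. Each replicate list was treated alike by taking its 4277 strongest peaks. In replicate 1, 46.2% of 2179 members were strong, against 25.1% of one-way upstream peaks. In replicate 3, the values were 46.6% of 2283 members and 24.8% of one-way upstream peaks. Members made up 24.2% of the IDR set. Intervals here and elsewhere cover the counting of peaks only, and regions of 1 group are no replicates of a condition, so no test was made.

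Members, like one-way upstream peaks, took a larger share of the strongest peaks than of the weakest. Members were 33 of the 100 strongest pooled peaks (33%), 37% of those ranked 101 to 500 and 39% of those ranked 501 to 1000. Their share was 16.8% at ranks 2001 to 4277, 4.17% at ranks 10001 to 20000 and 1.70% at ranks 20001 to 30000. One-way upstream peaks were 42% of the 100 strongest, more than the members, 35.5% of ranks 101 to 500, 31.6% of ranks 501 to 1000 and 11.8% of the last band. Both replicate lists had the same shape, with members at 35% and 2.03% of the first and last band in replicate 1, and at 34% and 2.18% in replicate 3.

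Close to the TSS, members were IDR peaks more often than one-way upstream peaks. With the summit up to 50 bp from the nearest TSS, 45.5% of 772 members were IDR peaks, against 34.6% of 983 one-way upstream peaks. From 50 to 100 bp the shares were 57.9% of members and 35.8% of one-way upstream peaks, and from 100 to 200 bp they were 54.1% and 32.5% in the same order. From 200 to 500 bp the shares were 20.9% of 235 members (15.8 to 26.6%) and 22.3% of 1480 one-way upstream peaks (20.2 to 24.5%), with overlapping intervals. Only 54 members lay farther out, of which 10 were IDR peaks. The plot of shares by distance shows the same step in each replicate list.

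**Figure D1:**
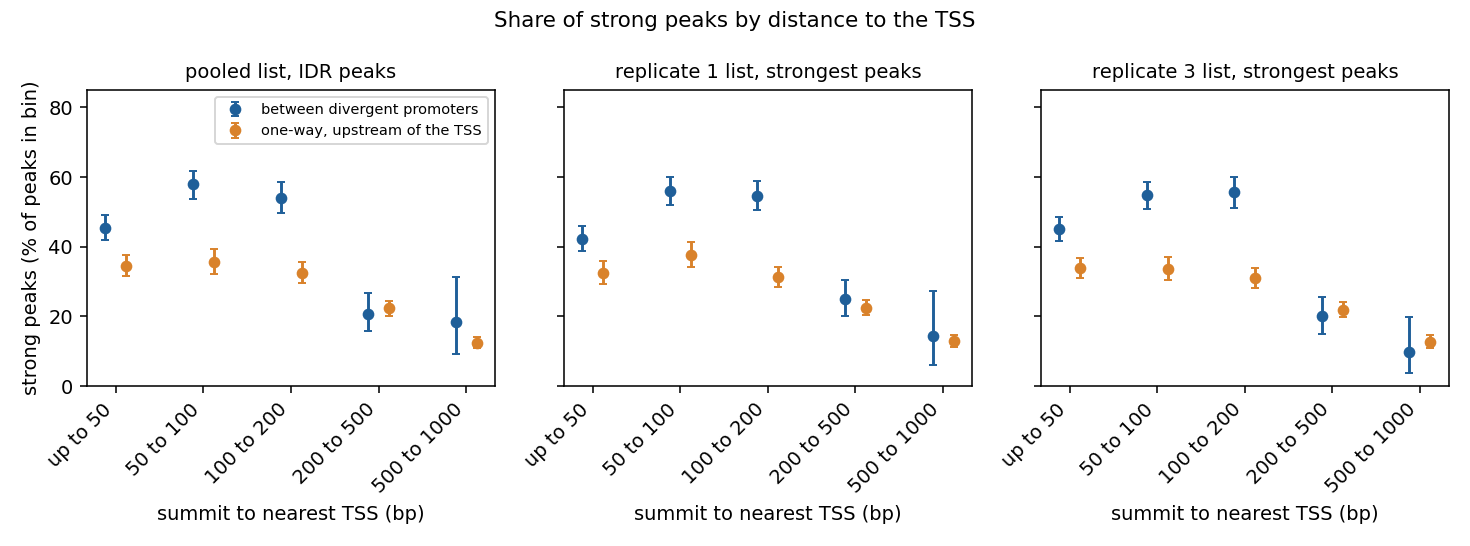
Share of strong peaks among members and one-way upstream peaks (vertical axis, percent) by distance of the summit to the nearest TSS (horizontal axis, bp), in the pooled list, replicate 1 and replicate 3. Points are shares and bars exact 95% intervals. Up to 200 bp the members are higher in all 3 lists, and from 200 to 500 bp the intervals overlap (20.9% and 22.3% in the pooled list).

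Seen from the genome, 2905 pairs of adjacent divergent coding TSSs lie at most 2 kb apart, with a median gap of 344 bp. A pooled summit lay in 1580 of these gaps (54.4%) and an IDR summit in 872 (30.0%). The gaps of 200 to 300 bp held an IDR summit most often, 232 of 519 (44.7%, 40.4 to 49.1%). The share was 16.3% of gaps up to 100 bp, 23.8% at 100 to 200 bp, 38.6% at 300 to 500 bp, 26.2% at 500 to 1000 bp and 22.8% at 1000 to 2000 bp. Replicate 1 alone gave 44.1% and replicate 3 alone 46.6% at 200 to 300 bp, the highest bin in each. A wide gap offers more room for a summit than a narrow one. Counted in an equal window of 150 bp to each side of the gap's midpoint, an IDR summit was found for 34.6% of gaps up to 100 bp, 32.6% at 100 to 200 bp, 45.1% at 200 to 300 bp, 32.7% at 300 to 500 bp, 6.71% at 500 to 1000 bp and 2.03% at 1000 to 2000 bp. This window reaches past both TSSs in gaps under 300 bp, where it also counts summits outside the gap. In gaps over 300 bp it leaves out the stretches next to the TSSs. Its shares are thus fixed in part by gap width, and they do not settle how room bears on the counts. By gene, 41.6% of the 5625 genes beside such a gap had an IDR summit no farther than 1 kb from a TSS, against 17.1% of the 8343 other coding genes. Genes of a pair can share a peak, so these genes are not independent items. A gene beside a gap also has its partner's TSS within 2 kb, and peaks of that promoter can fall in its reach. The higher share of such genes is thus fixed in part by how the groups were defined.

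**Figure D2:**
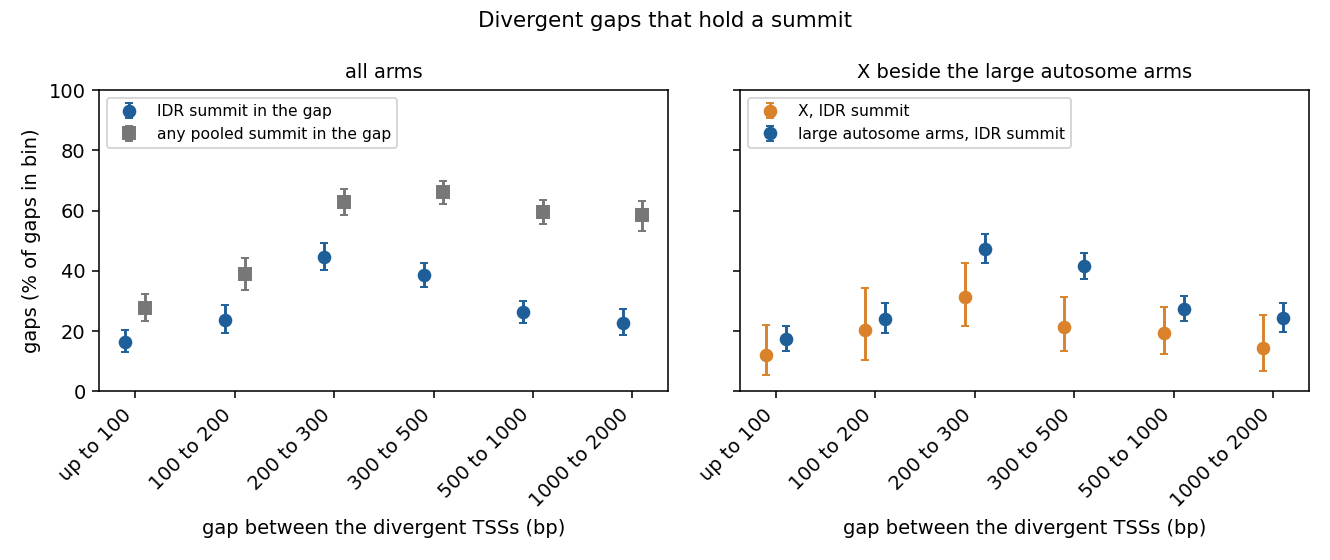
Share of divergent gaps (vertical axis, percent) that hold an IDR summit or any pooled summit, by gap width (horizontal axis, bp), for all arms on the left, and the share with an IDR summit on X and on the large autosome arms on the right. Points are shares and bars exact 95% intervals. The IDR share is highest at 200 to 300 bp (44.7%), and on X each bin's share is below that of the autosome arms, with overlapping intervals in 4 of the 6 bins.

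IDR members lay in narrower gaps than other members. The median distance between the flanking TSSs was 333 bp (exact 95% interval 319 to 350 bp) for IDR members and 535 bp (508 to 564 bp) for other members. The share of IDR members among all members was 67.2% in gaps of 200 to 300 bp and 34.8% in gaps of 500 to 1000 bp. The median distance to the nearer TSS was 84 bp for IDR members and 90 bp for other members, with overlapping intervals (80 to 89 bp and 83 to 96 bp). Another coding TSS lay between the flanking TSSs for 469 members (21.6%).

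The place of the summit in the gap changed with gap width. In gaps of 200 to 300 bp, 78.9% of 275 IDR members (73.6 to 83.6%) had their summit in the central 50% of the gap, against 44.8% of 134 other members (36.2 to 53.6%). Their median distance to the nearer TSS was 90 bp in IDR members and 58 bp in other members. In gaps of 500 to 1000 bp only 21.6% of 232 IDR members lay centrally, against 35.4% of 435 other members. The median distance of the IDR members to the nearer TSS was 90.5 bp there, about that in gaps of 200 to 300 bp, while the farther TSS was 577 bp away. In gaps over 1 kb the rule itself keeps summits away from both ends.

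**Figure D3:**
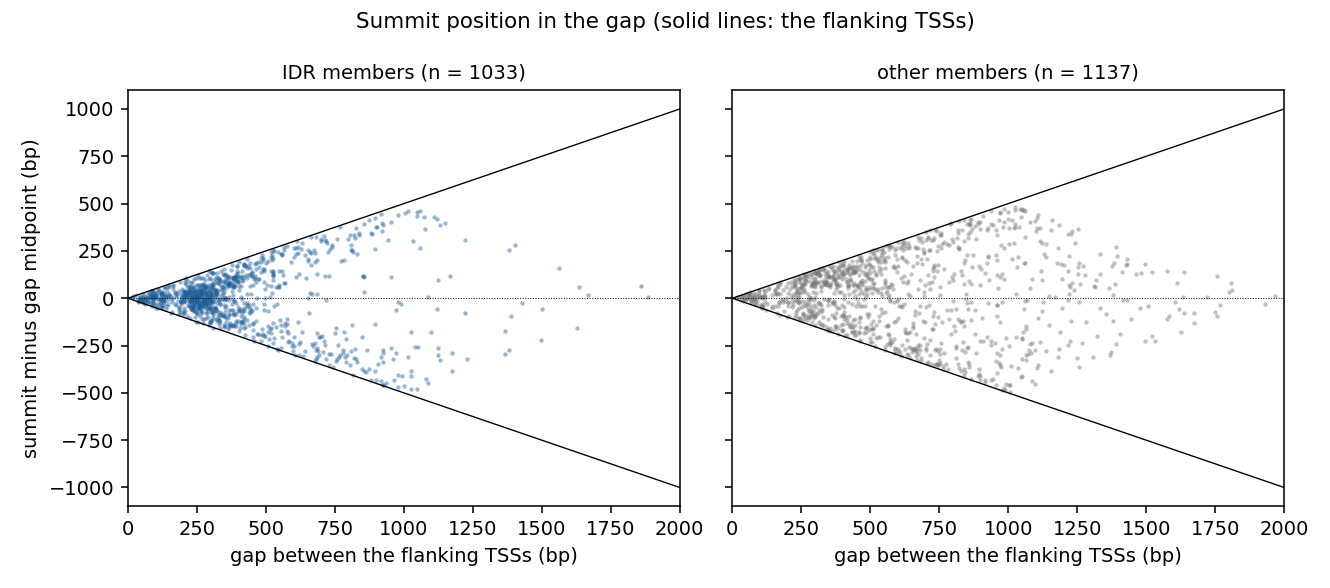
Position of the summit relative to the gap midpoint (vertical axis, bp) against the gap between the flanking TSSs (horizontal axis, bp) for IDR members on the left and other members on the right. Each point is a member and the solid lines are the flanking TSSs. IDR members gather at the midpoint of gaps of 200 to 300 bp (78.9% in the central 50%) and split into bands along the TSSs in wider gaps. The empty corners beyond 1 kb follow from the rule.

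The members fell into 1697 gene pairs, of which 1264 had 1 summit, 393 had 2 and 40 had 3. An IDR summit was found for 973 pairs, which name 1937 genes, and 60 pairs had 2 IDR summits. Counting every summit between adjacent TSSs, 3 gaps held the most, 4 each, ND-B17/Mtr4, CG42674/CG42833 and CG31288/CG13659. ND-B17 encodes a subunit of respiratory complex I and Mtr4 a helicase that serves the nuclear RNA exosome. Their gap of 1185 bp held 1 IDR summit with a signal of 146, and the other 2 gaps held none.

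The strongest members by pooled signal ranked high in both replicates, which is fixed in part by that choice. The first, between mRpL41, which encodes a protein of the large mitochondrial ribosomal subunit, and CG8079, had a pooled signal of 3802. It ranked 1 in replicate 1 with a signal of 1738 and 2 in replicate 3 with a signal of 2084. Its summit lay 135 bp from the mRpL41 TSS and 627 bp from that of CG8079. Pdrg1/Pal1 had a pooled signal of 1878 and ranked 5 in replicate 1 and 8 in replicate 3, with its summit 170 and 176 bp from the TSSs. Art3/mRpS10, a protein arginine methyltransferase gene beside a mitochondrial ribosomal protein gene, had a signal of 1783 and ranked 9 in replicate 1 and 7 in replicate 3. CG11309/CG7632 followed with a signal of 1607 and ranks of 10 and 12 in replicates 1 and 3.

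The remaining 11 of the 15 strongest members included pairs of genes for metabolism, translation and membrane traffic. Eno/Rrp40 paired the glycolytic enzyme enolase with a subunit of the RNA exosome, at a signal of 1424 and ranks of 11 in replicate 1 and 22 in replicate 3. Tcs5/CHMP2B, with the ESCRT-III subunit CHMP2B, had a signal of 1362. eIF4EHP/CG18428, with a cap-binding repressor of translation, had a signal of 1323 and ranked higher in replicate 1 (12) than in replicate 3 (32). RpS27/Nup37, with a cytoplasmic ribosomal protein and a nuclear pore protein, had a signal of 1248 and ranked 75 in replicate 1 and 13 in replicate 3. Ugalt/eIF2Bbeta, with a sugar nucleotide transporter and a translation initiation factor subunit, had a signal of 1236. It was the sole member among the 15 on X. CG14965/Hsp83, with the fly Hsp90 chaperone, had a signal of 1164 and ranked 48 in replicate 1 and 18 in replicate 3. mRpS23/CenG1A (1151), CG13018/CG13016 (1097), brm/Arl1 (1080) and Ripalpha/RpL7 (1078) were the last 4 by pooled signal. brm encodes the ATPase of the Brahma chromatin remodelling complex. All 15 were within the first 35 ranks of the pooled list, the first 75 ranks of replicate 1 and the first 34 of replicate 3. Their summits lay 39 to 199 bp from the nearer TSS.

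Around the IDR threshold the values were continuous. Just inside lay a member beside CG9257 at a signal of 111.82 and Bap55/Lhr at 111.80. Just outside lay Pp2C1/ctp and CG11658/Ccdc56, both at 111.77. Bap55/Lhr ranked 3382 in replicate 1 and 5493 in replicate 3, and Pp2C1/ctp 3696 in replicate 1 and 5071 in replicate 3.

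Most members had a peak at the same place in both replicates. A peak overlapped by at least 1 bp in both replicate lists for 1011 of 1033 IDR members (97.9%, 96.8 to 98.7%) and 988 of 1137 other members (86.9%, 84.8 to 88.8%). Since the IDR set was a cut on signal pooled over both replicates, a higher share in it is fixed in part by that choice. The matched share over all pooled peaks was not counted, so these shares describe members only. The median distance from the pooled summit to the replicate summit was 12 bp in replicate 1 and 13 bp in replicate 3 for IDR members, against 52 bp and 40 bp for other members. Over all members matched in both lists, Spearman's rho between the replicate signals was 0.829. It was 0.735 within IDR members and 0.490 within other members. The split by pooled signal limits the range of signal in each set, so these values do not rank the sets by reproducibility. All rho values describe regions that share the same pooled call and control.

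**Figure D4:**
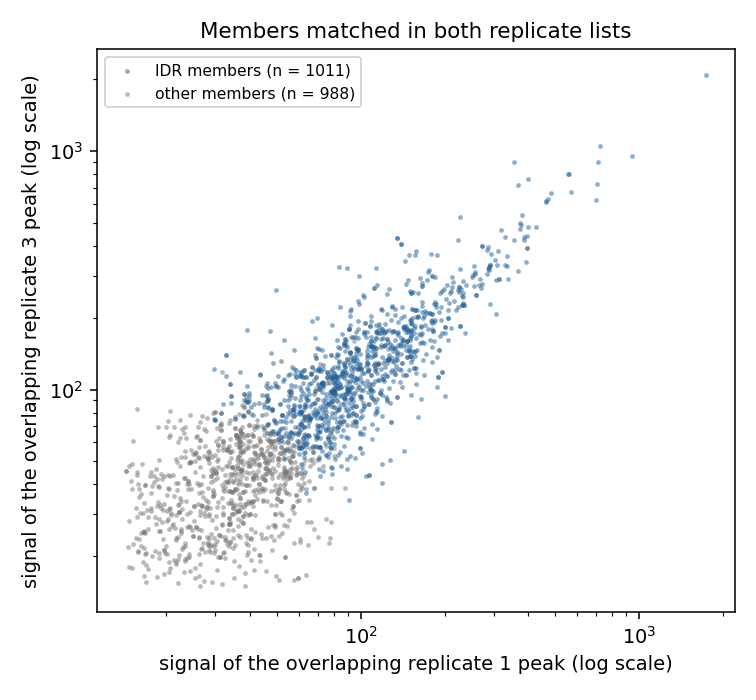
Signal of the overlapping peak in replicate 1 (horizontal axis) and replicate 3 (vertical axis), both on a log scale and in the peak caller's unstated unit, for 1011 IDR members and 988 other members matched in both lists. Each point is a member. IDR members form the upper end of a common diagonal (rho 0.735) and other members a broader cloud (rho 0.490). The split by pooled signal limits the range of signal in each set, and rho over all matched members was 0.829.

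Few strong peaks between divergent promoters were private to a replicate. Of the 1007 strong members of replicate 1, 9 (0.894%) overlapped no peak of replicate 3, and of the 1065 strong members of replicate 3, 57 (5.35%) overlapped none of replicate 1. Of all members, 139 of 2179 (6.38%) in replicate 1 and 285 of 2283 (12.5%) in replicate 3 were unmatched. The same shares over all peaks were not counted, so these counts do not set members apart from other peaks. The strongest private peaks of replicate 1 were mgr/Irbp at rank 584, mrn/CG12301 at rank 979 and Kaz/CG43273 at rank 1822. Those of replicate 3 were RpL34a/Trmt61 at rank 260, trc/CG32221 at rank 346 and CIAPIN1/Su(H) at rank 612. Su(H) encodes the transcription factor of the Notch pathway and RpL34a a cytoplasmic ribosomal protein.

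Sites of promoter factors were searched on both strands in the 101 bp around each summit. The DRE core TATCGA was in 20.7% of IDR members (18.3 to 23.3%) and 21.3% of other members (18.9 to 23.8%), against 16.0% of IDR one-way upstream peaks, 8.04% of other one-way upstream peaks and 6.23% of all pooled peaks. The full element TATCGATA, which contains the core, was in 6.68% of IDR members and 6.68% of other members, against 5.32% of IDR one-way upstream peaks and 1.32% of all pooled peaks. The BEAF-32-type site CGATAG, which shares letters with the DRE, was in 16.7% of IDR members and 15.3% of other members, against 12.8% of IDR one-way upstream peaks and 4.17% of all pooled peaks. For TATCGATA and CGATAG the intervals of IDR members and IDR one-way upstream peaks overlapped. For the core TATCGA the intervals did not overlap (18.3 to 23.3% in IDR members and 14.1 to 18.0% in IDR one-way upstream peaks).

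The motif 1 core GGTCAC was in 6.39% of IDR members and 7.74% of other members, against 5.18% of IDR one-way upstream peaks and 3.00% of all pooled peaks, and the longer GGTCACACT, which contains it, in 2.81% of IDR members and 3.25% of other members, against 0.677%. Motif 7, CATCNCTA, was in 3.97% of IDR members and 3.17% of other members, against 3.11% of IDR one-way upstream peaks and 1.11% of all pooled peaks. Here too the intervals of IDR members and IDR one-way upstream peaks overlapped for GGTCAC and CATCNCTA. GAGA factor sites, GAGAGA, were fewer than in the pool, in 1.84% of IDR members and 3.17% of other members, against 4.70% of IDR one-way upstream peaks and 4.95% of all pooled peaks. The E-box CAGCTG was in 5.81% of IDR members and 8.62% of other members, against 8.02% of IDR one-way upstream peaks and 5.03% of all pooled peaks. The TATA-type site TATAAA was in 20.1% of IDR members and 16.2% of other members, against 14.5% of IDR one-way upstream peaks and 13.3% of all pooled peaks. The initiator-type TCAGT was in 16.5% of IDR members and 17.3% of other members, against 17.5% of all pooled peaks, and the early embryonic factor Zelda's CAGGTA in 1.55% of IDR members and 2.37% of other members, against 1.86% of all pooled peaks.

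The homeodomain cores were not uniformly more frequent in members. TAATTG was in 10.1% of IDR members (8.30 to 12.1%) and 9.41% of other members (7.78 to 11.3%), against 8.70% of all pooled peaks. TAAACG was in 5.42% of IDR members and 5.45% of other members, against 4.76%. TAATTA was in 11.3% of IDR members (9.46 to 13.4%) and 7.04% of other members (5.62 to 8.68%), against 6.20% of all pooled peaks. Among IDR one-way upstream peaks TAATTG was in 7.60%, TAAACG in 5.11% and TAATTA in 5.94% (4.78 to 7.29%). Base composition moved with TAATTA, since mean GC content of the window was 36.0% in IDR members, 38.3% in other members and 41.6% over all pooled peaks. It was 40.4% in IDR one-way upstream peaks. In windows of at most 30% GC, TAATTA was in 22.3% of 350 IDR members (18.0 to 27.0%) and 17.8% of 247 other members (13.3 to 23.2%), with overlapping intervals. In such windows of 263 IDR one-way upstream peaks it was in 17.9% (13.4 to 23.0%), which overlaps both. TATAAA was there in 39.4% of IDR members and 39.9% of IDR one-way upstream peaks. The DRE core had overlapping intervals in IDR members and other members in every range of GC. It was in 9.43% of IDR members and 9.31% of other members at up to 30% GC, and in 22.0% of IDR members and 26.7% of other members at 30 to 40% GC. In windows of 40 to 50% GC it was in 33.3% of IDR members and 24.8% of other members, against 21.0% of IDR one-way upstream peaks and 9.05% of other one-way upstream peaks. Above 50% GC it was in 23.9% of 117 IDR members and 17.8% of 129 other members. A match is a string of letters and not a bound site.

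**Figure D5:**
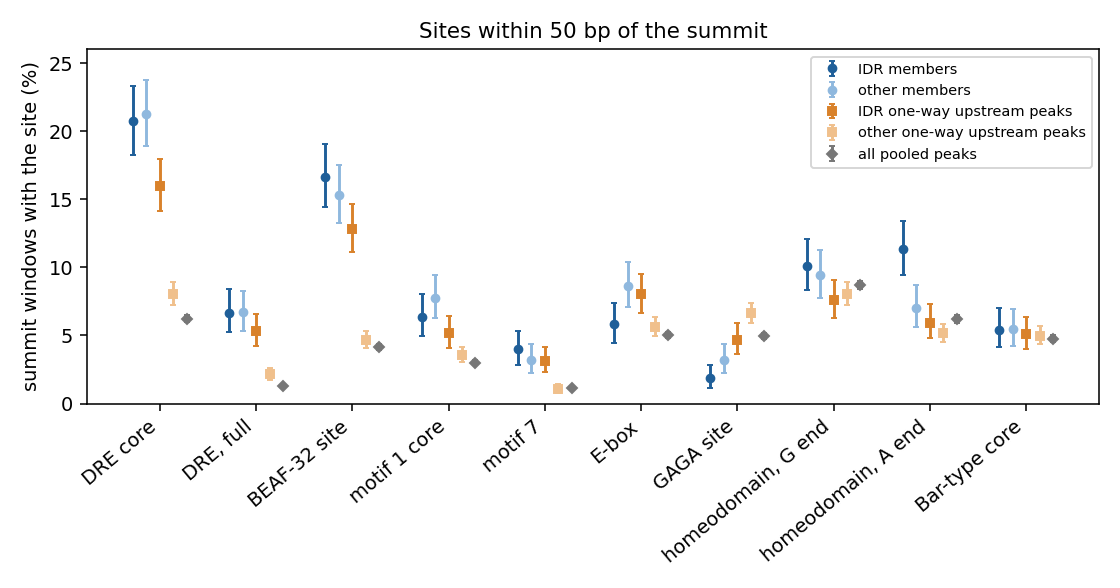
Share of summit windows of 101 bp that hold each site (vertical axis, percent) in IDR members, other members, IDR one-way upstream peaks, other one-way upstream peaks and all pooled peaks. Points are shares and bars exact 95% intervals. DRE, BEAF-32, motif 1 and motif 7 sites are more frequent in both kinds of members than in all pooled peaks, GAGA sites are less frequent, and the DRE core differs little between IDR members (20.7%) and other members (21.3%).

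Within members, signal and the DRE did not rise together. In 5 groups of 434 members from the weakest to the strongest signal, TATCGA was in 15.9%, 23.5%, 27.2%, 22.4% and 16.1%. The longer motif 1 was in 0.922% of the strongest group, against 2.76 to 4.38% in the other 4. Mean GC content of the window was 34.5% in the strongest group and 36.3 to 38.6% in the other 4. The site shares of these groups were not matched for GC content. Members with TATCGA and without GGTCAC were IDR peaks in 46.4% of 418 cases, and members with neither in 48.4% of 1598 cases. Members with a DRE core and no GGTCAC had a median of 48.5 bp between summit and nearer TSS, and members with neither site 103 bp.

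Sites were also placed within the whole gap. A gap that held both kinds of members was counted in both sets. Other members lay in wider gaps, and the shares and distances here were not matched for width. TATCGATA was found in 207 of 993 gaps with an IDR member (20.8%) and 222 of 1006 gaps with another member (22.1%). Its median distance to the nearer TSS was 39.5 bp in gaps with an IDR member and 40.5 bp in gaps with another member. Of 157 matches of CATCNCTA in gaps with an IDR member, 128 (81.5%) lay on the strand of the nearer gene, and so did 95 of 130 (73.1%) in gaps with another member. The TATA-type site lay farther out, at a median of 139.5 bp from the nearer TSS for 1273 matches in gaps with an IDR member and 179.5 bp for 1644 matches in gaps with another member. GGTCACACT showed 41 of 73 (56.2%) and 48 of 87 (55.2%) on that strand in the same order.

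Gene groups differed in how often their members lay beside a divergent gap and in how often that gap held an IDR summit. Over all genes, 40.3% lay beside a gap of at most 2 kb, and 30.9% of these 5625 genes had an IDR summit in it. Of 76 genes for mitochondrial ribosomal proteins 61 lay beside a gap, and 31 of them had an IDR summit in it (50.8%, 37.7 to 63.9%). Of 86 genes for cytoplasmic ribosomal proteins 55 lay beside a gap, and 27 had an IDR summit (49.1%, 35.4 to 62.9%). Their strongest were RpS27/Nup37, Ripalpha/RpL7 and RpL34b/CG8132, the last with a signal of 906 and ranks of 60 in replicate 1 and 45 in replicate 3.

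Membrane traffic genes had shares of similar size. Of 33 vacuolar sorting and autophagy genes beside a gap 17 had an IDR summit (51.5%, 33.5 to 69.2%), led by Fur1/Vps33B at a signal of 629. Atg17 and Atg2, both autophagy genes, followed, in the gaps Xe7/Atg17 at 461 and CG12093/Atg2 at 360. Of 39 secretory pathway and Rab genes beside a gap 20 had one (51.3%, 34.8 to 67.6%), led by alphaCOP/CG13919 at 461, where alphaCOP encodes a subunit of the COPI vesicle coat. Translation factors had 12 of 27 (44.4%, 25.5 to 64.7%), the vacuolar proton pump 6 of 15 (40%, 16.3 to 67.7%) and aminoacyl-tRNA synthetases 10 of 24 (41.7%, 22.1 to 63.4%), all with intervals that included the background of 30.9%.

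The intervals of the lists of nuclear machinery also included that background. Spliceosome genes lay beside a gap for 31 of 34, and 13 of these had an IDR summit (41.9%, 24.5 to 60.9%), among them U2af50/PIG-Q at a signal of 350. Replication genes had 8 of 22 (36.4%), led by dup/SRPK at 479, where dup encodes the licensing factor Cdt1. Mediator, TFIID and RNA polymerase II genes had 12 of 37 (32.4%), led by 140up/Polr2B at 484. Taf10b/Taf10, with its gap of 45 bp, was the only IDR member whose genes were in the same list, at a signal of 127 and ranks of 3608 in replicate 1 and 3848 in replicate 3. Both genes encode TFIID subunits. Respiratory chain genes had 18 of 50 (36%), chaperones 6 of 18 (33.3%), proteasome genes 9 of 30 (30%), and anaphase promoting complex and cyclin genes 1 of 9 (11.1%), Cdc16 in the gap orb/Cdc16.

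Genes for factors known to act at such promoters flanked members too. Of 13 insulator and promoter factor genes beside a gap 6 had an IDR summit in it (46.2%, 19.2 to 74.9%), with an interval that included the background of 30.9%. Cp190, an insulator cofactor, had the strongest, at a signal of 906 and ranks of 42 in replicate 1 and 59 in replicate 3. Dref, the DRE-binding factor, shares an 84 bp gap with RpL13, with a signal of 431 and ranks of 594 in replicate 1 and 204 in replicate 3. M1BP had a gap of 393 bp with a signal of 411, BEAF-32 a gap of 1046 bp with 2 IDR summits up to 271, and msl-1 and mod(mdg4) the remaining ones at 146 and 231. Chro, the chromodomain partner of BEAF-32, flanked an IDR member with Ssl1 at a signal of 658, although not as an adjacent TSS.

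The lists of tissue-restricted genes had lower shares beside a gap than the 40.3% of all genes, with 30 of 120 cuticle protein genes (25%), 35 of 180 chemosensory receptor genes (19.4%), 6 of 36 proneural and neuronal genes (16.7%) and 7 of 77 homeobox genes (9.09%). Of the 7 homeobox genes, 3 had an IDR summit in the gap. They were tin, the heart and mesoderm regulator, in the 1576 bp gap that it shares with mod(mdg4), the eye regulator ey in a gap of 1634 bp at a signal of 188, and btn in a gap of 1130 bp at 176. Of the 6 proneural and neuronal genes, 2 had an IDR summit, brat at a signal of 126 and Syx1A at 146. Of 35 chemosensory receptor genes beside a gap 5 had one (14.3%), the strongest in Or9a/Neb-cGP, 71 bp from the Neb-cGP TSS and 989 bp from the Or9a TSS. None of 30 cuticle protein genes beside a gap had an IDR summit, with an exact 95% upper bound of 11.6% (10% by the rule of 3 counts in the total). A pooled summit lay in the gap for 10 of the 30. Their median gap was 1200.5 bp, against 339 bp over all genes beside a gap.

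Members on X had a lower IDR share than members on the large autosome arms. On X, 125 of 379 members were IDR peaks (33.0%, 28.3 to 38.0%), against 902 of 1776 on the large autosome arms (50.8%, 48.4 to 53.1%), where single arms ranged between 46.8% on 2R and 54.9% on 3L. In replicate 1 the strong share was 33.4% on X and 49.0% on the autosome arms, and in replicate 3 it was 32.3% on X and 49.8% on the autosome arms. Among one-way upstream peaks the IDR share was 23.5% on X (21.0 to 26.2%) and 25.9% on the autosome arms (24.6 to 27.2%). An IDR summit lay in 20.2% of 460 gaps on X and 31.8% of 2428 on the autosome arms, while any pooled summit lay in 55.7% of gaps on X and 54.0% on the autosome arms. Gaps had a median of 355.5 bp on X and 337.5 bp on the autosome arms, but members lay in wider gaps on X, at a median of 499 bp, against 411 bp on the autosome arms. In replicate 1 these medians were 506 bp on X and 421 bp on the autosome arms, and in replicate 3 they were 519 bp on X and 402 bp on the autosome arms. In gaps of 300 to 500 bp, 21.3% on X (13.4 to 31.3%) and 41.6% on the autosome arms (37.4 to 45.9%) held an IDR summit, the widest difference of the 6 width bins. In gaps of 200 to 300 bp the shares were 31.3% on X (21.6 to 42.4%) and 47.4% on the autosome arms (42.6 to 52.2%), and in the other 4 bins the intervals of X and the autosome arms overlapped. Chromosome 4 had 15 members, of which 6 were IDR peaks.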

How the data were processed

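Peak lists from ChIP-seq of B-H2-GFP embryos (1 group, replicates 1 and 3) were used as deposited, in dm6 coordinates per the labels. Per the deposited file descriptions, the authors called 30000 peaks for each replicate and for the pooled alignments, against the same control alignment, and derived the IDR set from them. Which peak caller and IDR threshold the authors used is not given in the sources used here. The deposited signal values come from the authors' peak caller and served to order and describe the peaks of each list, without comparing values between lists. The deposited −log10 q-value was at its maximum, 4.09, for all IDR peaks. The authors' other column used was the summit offset. The number of sample columns left unused was 0. Read depth is unknown.

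Gene models were Ensembl release 115 (BDGP6.54) with 13968 protein-coding genes, and sequence was the RefSeq Release 6 genome, the same assembly. A member needed both flanking TSSs to be protein-coding. Allowing a right TSS of any gene type gave 2403 members. Of the other members, 145 touched the interval of an IDR peak, and 6 members shared their interval with another summit. Sites were searched within 50 bp of the summit. Shares have exact (Clopper-Pearson) 95% intervals, and medians exact order-statistic intervals. The classification was tested on simulated data. Members, lists and sites were chosen with earlier results of these data known. A symbol pattern in the cuticle list that also matched Cp190 and chorion genes was removed after values were seen. The genes named were the 15 strongest members, up to 3 per gene list, pairs within a list, the 3 gaps with most summits, the 3 strongest peaks private to each replicate and the nearest 2 members on each side of the IDR threshold. Some items that this rule selects are not reported here. Genes of the insulator, homeobox and neuronal lists beyond these were named after their values were seen. The equal-window count, the split by GC content and the comparison of X with the autosome arms were added after seeing the data. Python 3.11.15, numpy 2.4.6, pandas 2.3.3, scipy 1.17.1 and matplotlib 3.10.9 were used.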

Additional observations from a re-analysis of the deposited data

How the results depend on the processing

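Of 85 alternative values for 16 results, 39 stayed within the exact 95% interval of the main value. The IDR share of members stayed above that of one-way upstream peaks under all 9 alternatives applied to both. It was 54.9% of members and 30.4% of one-way upstream peaks with TSSs within 500 bp, 40.2% and 20.6% with TSSs within 2 kb, 30% and 11.9% for the 2000 strongest pooled peaks, 67.1% and 42.7% for the 8000 strongest, and 54.6% and 28.9% with overlapping peaks merged. Without peaks that touch an IDR peak it was 51.0% of members, and with adjacent TSSs only 49.7%. With 1 canonical TSS per gene, 56.3% of gaps held a pooled summit and 32.2% an IDR summit. The equal window, added after seeing the data, gave 25.5% of gaps with an IDR summit. Each replicate alone gave 54.1 to 57.8% of gaps with a pooled summit. Site shares followed the window. With 25 bp to each side, TATCGA was in 10.4% of IDR members and 13.1% of other members, GGTCAC in 2.61% and 3.43%, and TAATTG in 5.03% and 4.75%. With 100 bp the shares were 35.8% and 31.5% for TATCGA, 13.5% and 14.5% for GGTCAC, and 19.6% and 19.4% for TAATTG. Among the 2000 strongest pooled peaks, TATCGA was in 17.8% and GGTCAC in 4.61% of members, and each replicate alone gave TATCGA in 18.3 to 21.6% of other members. The median gap was 290 bp in IDR members and 373 bp in other members with TSSs within 500 bp, 414.5 bp and 1035.5 bp with TSSs within 2 kb, and 483 bp in other members with adjacent TSSs. The median distance to the nearer TSS was 79 to 92 bp in IDR members from each replicate alone, and in other members 77 bp with TSSs within 500 bp, 152 bp within 2 kb and 80 bp with adjacent TSSs. For the match in both replicates, summits within 100 bp gave 94.5% of IDR members and 57.2% of other members, the strongest peaks of each replicate 81.2% and 10.2%, and an overlap of at least 50% of the narrower interval 71.6% of other members. No paired analysis was possible because the result comes from no test and there was 1 group. Peak lists without read counts limit the precision to counts of peaks.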

Other observations

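The weaker summits were not placed symmetrically about the genome's strands. Among pooled peaks outside the IDR set with a summit within 300 bp of a coding TSS, the median position relative to the TSS was -20 bp at plus-strand genes and -42 bp at minus-strand genes, where negative means upstream. IDR peaks had medians of -64 bp at plus-strand genes and -61 bp at minus-strand genes. The same pattern stood in each replicate list, with -19 bp at plus-strand and -47 bp at minus-strand genes for the weaker peaks of replicate 1, and -19 bp and -33 bp for those of replicate 3. Between divergent promoters, 57.3% of other members (651, 54.4 to 60.2%) were nearer to the plus-strand TSS, against 52.3% of IDR members (537, 49.2 to 55.4%). Distances of other members to a TSS carry this offset, and its cause was not tested.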
